A study of Arabidopsis thaliana with 6 samples.

Results

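The plant mitochondrial genome holds, beside its known genes, many open reading frames that no function has been given to. The 84 open reading frames described here are all rows of the 3 deposited periodicity tables whose name is none of 33 known mitochondrial genes. They make up 84 of 140 rows, and the other 56 rows are 24 whole known genes and 32 exons of known genes. Each table lists, for every row, which percentage of its ribosome footprints lay in frame 0, the reading frame of that row, and in frames 1 and 2. A table came from each of 3 footprint libraries of Arabidopsis thaliana, ecotype Col-0, made from mitochondria of the youngest leaves of plants aged 9 to 10 weeks. The plants of all 3 libraries had 8 h of light and 16 h of dark. The first library came from wild type (WT), grown without kanamycin. The other 2 came from the P2 and P3 phenotypes of the heterozygous rps10 mutant (Rps10 +/-), whose seedlings were selected on 50 mg/L kanamycin. RPS10, a nuclear gene, encodes a mitochondrial ribosomal protein of the small subunit, and the RPS10 level was not analysed here. P2 and P3 belong to the same mutant and are not independent mutants. Every library pooled 15 mitochondrial preparations, from isolations of about 30 g of leaves in WT and about 15 g in the mutants, and all carried chloramphenicol at 100 µg/ml. With 1 library per group no difference has a replicate check and no test was possible, and genotype, kanamycin and amount of leaf cannot be told apart.

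A ribosome moves along a message by codons, so footprints of a translated frame pile up in that frame, and this periodicity is commonly read as a mark of translation. Fragments left by other processes need not follow the codons of an open reading frame, and an even spread puts 33.3% in each frame. An uneven spread is not by itself proof that a row was translated. Open reading frames of plant mitochondria are named by their predicted length in codons, with a letter where several share a length. Some were later recognised as genes, such as mttB, a gene for a membrane transport protein that carries the synonyms orfX and tatC in the gene table. Others are joined from pieces of known genes and are best known in crop plants with cytoplasmic male sterility. None of the 84 names matched a gene in the mitochondrial part of the RefSeq gene table (assembly TAIR10.1), so no position, sequence or neighbouring gene is given. None of them had a gene level (TPM) in any library. Lengths stated by the names run from 100 to 315 codons, with a median of 122.

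The number of footprints behind a frame share was not given for any row, so the exact depth of each value is unknown. The shares of a row set a smallest possible number of footprints, which differs between rows and was not derived here. Over the mitochondrial genome outside tRNA and rRNA there were 665159 footprint reads in WT, 461960 in P2 and 327439 in P3. Of these, 248905 reads in WT, 381814 in P2 and 278786 in P3 were not counted to mitochondrial coding sequences, which was 37.4%, 82.7% and 85.1%. These numbers were obtained by subtraction. The labels do not say whether the open reading frames were among the coding sequences. Reads that matched several positions made up 10.6%, 11.5% and 11.5% of the reads over the mitochondrial genome. Open reading frames with near-identical copies elsewhere in the genome could share such reads.

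More open reading frames had a frame value in the mutant libraries than in WT. A value was listed for 48 of 84 in WT (57.1%), 74 in P2 (88.1%) and 70 in P3 (83.3%). Over all 140 rows the shares were 74.3%, 92.9% and 90.0%, and all 56 known rows had a value in each library. The larger numbers in P2 and P3 went along with more reads not counted to coding sequences than in WT. The part of that in the numbers was not tested.

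**Figure D1:**
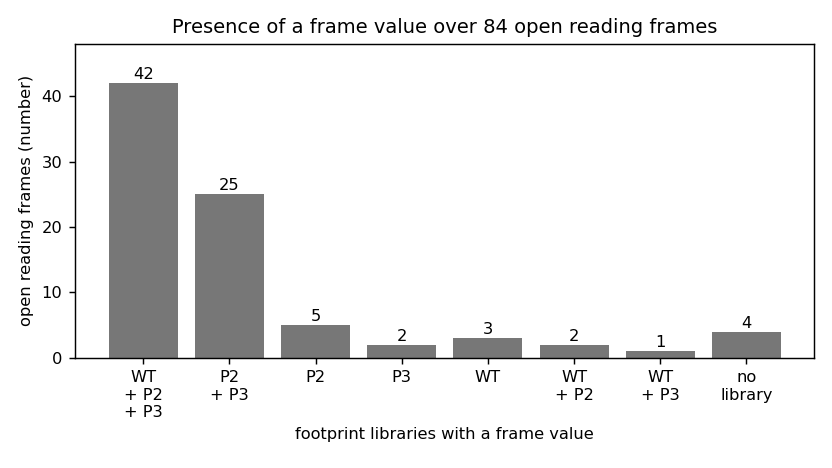
Number of open reading frames (vertical axis) by the set of footprint libraries in which a frame value was listed (horizontal axis). Of 84 open reading frames, 42 had a value in all 3 libraries and 25 in P2 and P3 without WT, against 3 in WT alone.

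A value in all 3 libraries was found for 42 open reading frames, and 25 had one in both mutant libraries without WT. P2 alone had a value for 5 (ORF106B, ORF106E, ORF111A, ORF152B and ORF170), P3 alone for 2 (ORF139A and ORF143) and WT alone for 3 (ORF106D, ORF109B and ORF120). ORF122A and ORF136A had one in WT and P2, and ORF100A had one in WT and P3. ORF106G, ORF107A, ORF107D and ORF111C had none in any library. The WT list shared 44 members with P2, which was 91.7% of the WT list and 59.5% of the P2 list. It shared 43 members with P3, which was 89.6% of the WT list and 61.4% of the P3 list. P2 and P3 shared 67 members, 90.5% of the P2 list and 95.7% of the P3 list. These overlaps are to be read against the 88.1% and 83.3% of all 84 members that had a value in P2 and P3. Split at the median length, a value was listed for 22 of 41 shorter open reading frames (100 to 121 codons) in WT, 33 in P2 and 31 in P3. Of the 43 longer ones (122 to 315 codons) 26 had a value in WT, 41 in P2 and 39 in P3.

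Many of the listed values sat at the ends of the scale, with at least 1 frame at exactly 0% or 100%. This held for 31 of the 48 open reading frames with a value in WT (64.6%), for 34 of 74 in P2 (45.9%) and for 34 of 70 in P3 (48.6%). A single frame held 100% in 20 of them in WT, 15 in P2 and 17 in P3. Among the known rows an end value occurred once, for an exon of nad5 in WT (nad5_3). Values at the ends can rest on very few footprints. The 17 open reading frames that had a value in all 3 libraries without any frame at 0% or 100% are therefore given first and in full. Their median length was 153 codons, and 12 of them were in the longer class. Over all rows 51.4% met this condition, as did 55 of the 56 known rows. Meeting it does not show that a share rests on many footprints. Shares such as 27.3%, 27.3% and 45.5% in frames 0, 1 and 2 (ORF275 in WT) can also come from few.

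The open reading frames leaned less to their own frame than the known genes did. In WT the median frame 0 share was 46.3% over 48 open reading frames and 57.0% over the 56 known rows. In P2 it was 33.3% over 74 open reading frames and 41.0% over the known rows, and in P3 28.8% over 70 and 41.9%. The medians of the open reading frames in P2 and P3 thus lay at and below the even share of 33.3%. Over the 42 with a value in all 3 libraries the medians were 49.7%, 33.8% and 33.3%. The spread was wide. The middle 50% of the open reading frames ran from 0% to 66.7% in WT, from 13.4% to 50% in P2 and from 0.967% to 49.0% in P3, against 52.2% to 61.9%, 32.0% to 47.8% and 30.7% to 48.3% for known rows.

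**Figure D2:**
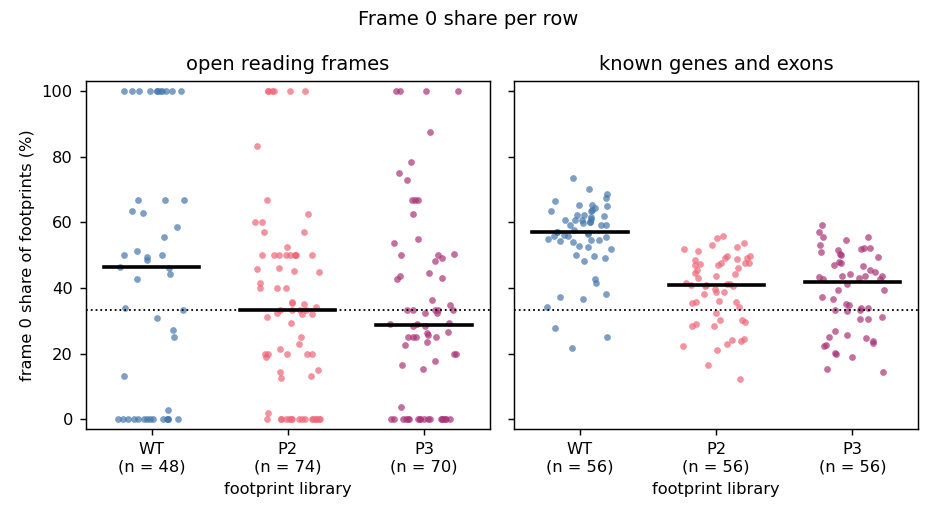
Frame 0 share of footprints in percent (vertical axis) in each footprint library (horizontal axis), with 1 point per row, a bar at the median and a dotted line at an even spread (33.3%). Open reading frames (left) fill the range from 0% to 100% with medians of 46.3%, 33.3% and 28.8%, while the known genes and exons (right) have medians of 57.0%, 41.0% and 41.9%.

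Frame 0 held at least 50% of the footprints in 21 open reading frames in WT (43.8% of those with a value), 23 in P2 (31.1%) and 17 in P3 (24.3%). Over all rows with a value the shares were 62.5% in WT, 23.1% in P2 and 23.8% in P3, and over the known rows 44, 7 and 13 of 56 passed. The value nearest to the threshold from below was that of ORF291 in WT (49.3%) and of ORF145C in P2 (46.2%) and P3 (49.2%), while 2 members in WT, 9 in P2 and 2 in P3 stood at exactly 50%. Frame 0 held the largest share in 25 open reading frames in WT, 22 in P2 and 21 in P3, and over all rows in 71.2%, 44.6% and 43.7%. Frame 1 led in 7, 17 and 25, frame 2 led in 9, 17 and 19, and 7, 18 and 5 had a tie for the lead. Of the 56 known rows, frame 0 led in 49, 36 and 34, frame 1 in 3, 7 and 9, and frame 2 in 3, 12 and 12. Larger counts for frames 1 and 2 in the mutants than in WT were thus also seen in the known rows. In WT, frame 0 was thus ahead of the other frames among the open reading frames. In P3 the order of frames 0 and 1 turned with the rows counted. Frame 0 led in 16 and frame 1 in 14 of those with a value in all 3 libraries. Without rows at 0% or 100%, frame 0 led in 11, frame 1 in 10 and frame 2 in 13, so frame 2 led most often. The largest of the 3 shares stood 33.3 points above an even spread at the median in WT, 17.6 points in P2 and 27.9 points in P3. The known rows stood 24.1, 11.9 and 12.5 points above it. Rows at 100% raise this distance. Over the 17 open reading frames without end values in any library it was 15.3, 7.37 and 15.9 points. The 55 known rows without end values stood at 24.3, 11.6 and 12.6 points. The open reading frames were thus the more uneven list in WT and P2 only when end values were counted.

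Frame 0 led in WT in 11 of the 17 open reading frames without end values, and these fell apart into members that kept much the same shares in the mutants and members that did not. ORF110A, ORF145C and ORF149 belonged to the first kind. ORF110A had 48.7% of its footprints in frame 0 in WT, 44.9% in P2 and 48.3% in P3. ORF145C had 44.2%, 46.2% and 49.2%, and ORF149 had 46.5%, 45.2% and 50.4%. All 3 open reading frames also had frame 1 second and frame 2 last in every library. Frame 1 held 34.9%, 40.6% and 31.0% of ORF110A, 34.8%, 33.3% and 28.1% of ORF145C and 37.7%, 42% and 37.6% of ORF149. Frame 2 held 16.4%, 14.5% and 20.7% of ORF110A, 21.1%, 20.5% and 22.7% of ORF145C and 15.8%, 12.8% and 12% of ORF149. Their frame 0 shares differed from WT by -3.73 points in P2 and -0.381 in P3 for ORF110A, by 2.05 and 5.04 for ORF145C and by -1.31 and 3.85 for ORF149. The same differences over the known rows had medians of -14.8 points in P2 and -15.3 points in P3. Small differences also occurred among known rows. Of these, 7 of 56 differed from WT by less than 10 points in both mutants, as did 10 of the 17. The known gene cox3 differed by -3.49 points in P2 and -2.05 in P3.

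ORF114 and ORF291 also had frame 0 in the lead in all 3 libraries, with smaller shares in the mutants. ORF114 had 51.4% in frame 0 in WT, 45.7% in P2 and 43.7% in P3. Its frame 1 share was 13.4% in WT and 33.3% and 30.3% in the mutants, so frame 2 came second in WT (35.2%) and frame 1 came second in P2 and P3. ORF291 had 49.3% in frame 0 in WT, 35.3% in P2 and 43.1% in P3, with 20.9%, 34.1% and 31.0% in frame 1. In ORF291 the P2 library therefore stood close to an even spread, and P3 lay between WT and P2.

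ORF313, ORF262, ORF215A and ORF153B had the 4 highest frame 0 shares of the 17 in WT, and none of them kept that level in P2. Members picked for a high WT value tend to be lower elsewhere. The part of this choice in their differences from WT was not tested. ORF313 had 58.6% in frame 0 in WT, 15.1% in P2 and 25.9% in P3. Frame 2 took 22.7% of its footprints in WT and 51.8% and 49.7% in the mutants, so the lead passed from frame 0 to frame 2. The difference of ORF313 from WT, -43.5 points in P2 and -32.8 points in P3, was the largest of the 17 in each comparison. ORF262 had 55.6% in frame 0 in WT, 29.2% in P2 and 28.9% in P3, and its P3 value differed from P2 by -0.283 points. Its lead was in frame 2 in P2 (38.5%) and in frame 1 in P3 (36.8%).

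The mutant libraries differed from each other for the other 2. ORF215A had 63.3% in frame 0 in WT, 21.4% in P2 and 50.0% in P3, and frame 1 led in P2 with 50.0%. ORF153B had 62.7% in WT, 35.7% in P2 and 53.8% in P3, and in P2 frames 0 and 2 were tied. P3 was 28.6 points above P2 in ORF215A and 18.1 points above it in ORF153B, the largest gaps between the mutant libraries among the 17. These shares may also rest on few footprints, and the gaps were not tested. ORF294 and ORF118 completed the members led by frame 0 in WT. ORF294 had 46.1% in frame 0 in WT, 35.2% in P2 and 32.4% in P3, with all frames between 31.4% and 36.3% in the mutants. ORF118 had 42.9%, 31.0% and 22.7%, and frame 1 led it in P3 with 54.5%.

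**Figure D3:**
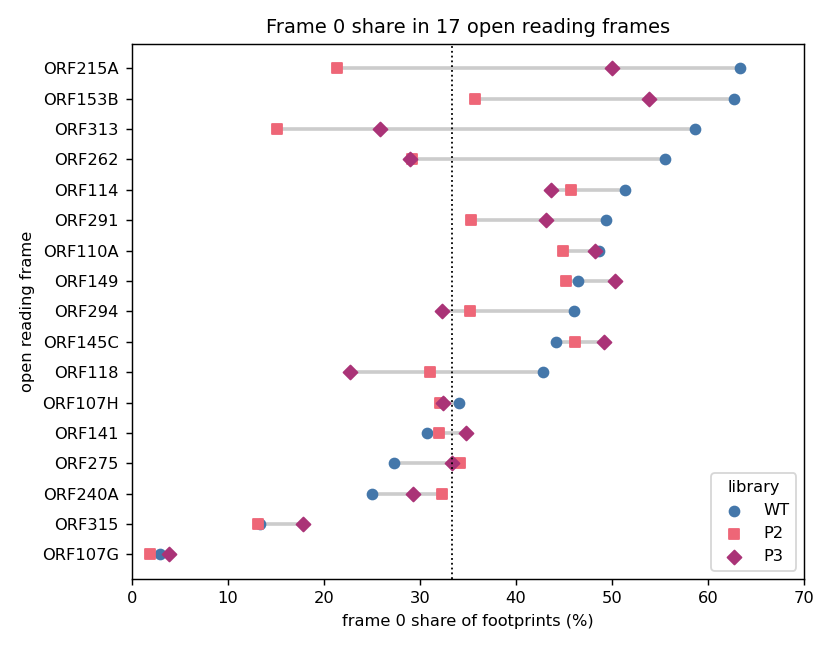
Frame 0 share of footprints in percent (horizontal axis) for the 17 open reading frames without a frame at 0% or 100% (vertical axis, ordered by WT), with 1 marker per library, a grey line over their range and a dotted line at an even spread. The markers of ORF110A, ORF145C, ORF149, ORF107H, ORF315 and ORF107G lie close together. Those of the members picked as highest in WT (ORF313, ORF262, ORF215A and ORF153B) reach from 55.6% or more in WT to 35.7% or less in P2.

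Frame 2 led in 5 of the 17 in WT, and it kept the lead in ORF107G, ORF315 and ORF107H in both mutants. ORF107G stood apart from all the others. Its frame 0 held 2.99% of the footprints in WT, 1.90% in P2 and 3.87% in P3, while frame 2 held 76.0%, 87.4% and 79.7%. Its frame 0 share was the lowest of the 17 in each library, and it lay below the lowest known row of each library (21.7%, 12.3% and 14.4%). ORF315, the longest open reading frame by its name, had 13.4% in frame 0 in WT, 13.1% in P2 and 17.9% in P3, with 55.5%, 52.7% and 50.7% in frame 2. ORF107H had 34.1%, 32.1% and 32.4% in frame 0 and 45.1%, 40.7% and 40.6% in frame 2. The footprints of ORF107G and ORF315 were thus uneven in every library, but not towards the frame of the open reading frame itself. Of the known rows, 4 of 56 were led by the same other frame in all 3 libraries, by frame 1 in an exon of nad7 (nad7_1) and in rpl16, and by frame 2 in exons of nad2 (nad2_5) and nad4 (nad4_4).

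The last 3 of the 17 were ORF275, ORF141 and ORF240A, in which another frame than frame 0 led in WT and did not keep the lead in either mutant. ORF275 had 27.3% in frame 0 in WT, 34.2% in P2 and 33.3% in P3, and frame 2, which held 45.5% in WT, held 31.6% and 30.6% in the mutants. ORF141 had 30.8%, 32.0% and 34.8% in frame 0, and frame 1 reached 52.2% in P3. ORF240A had 25%, 32.4% and 29.3%, with frame 1 in the lead in WT (40.0%) and frame 2 in P2 (36.8%) and P3 (41.5%). The frame 0 shares of these 3 open reading frames were higher in both mutants than in WT, by 1.23 to 7.35 points. In all cases frame 0 also lay closer to 33.3%, but this does not hold for whole rows. The largest share of ORF141 was 38.5% in WT and 52.2% in P3. The 3 were grouped by a lead in WT that was then lost, and the part of this choice was not tested.

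**Figure D4:**
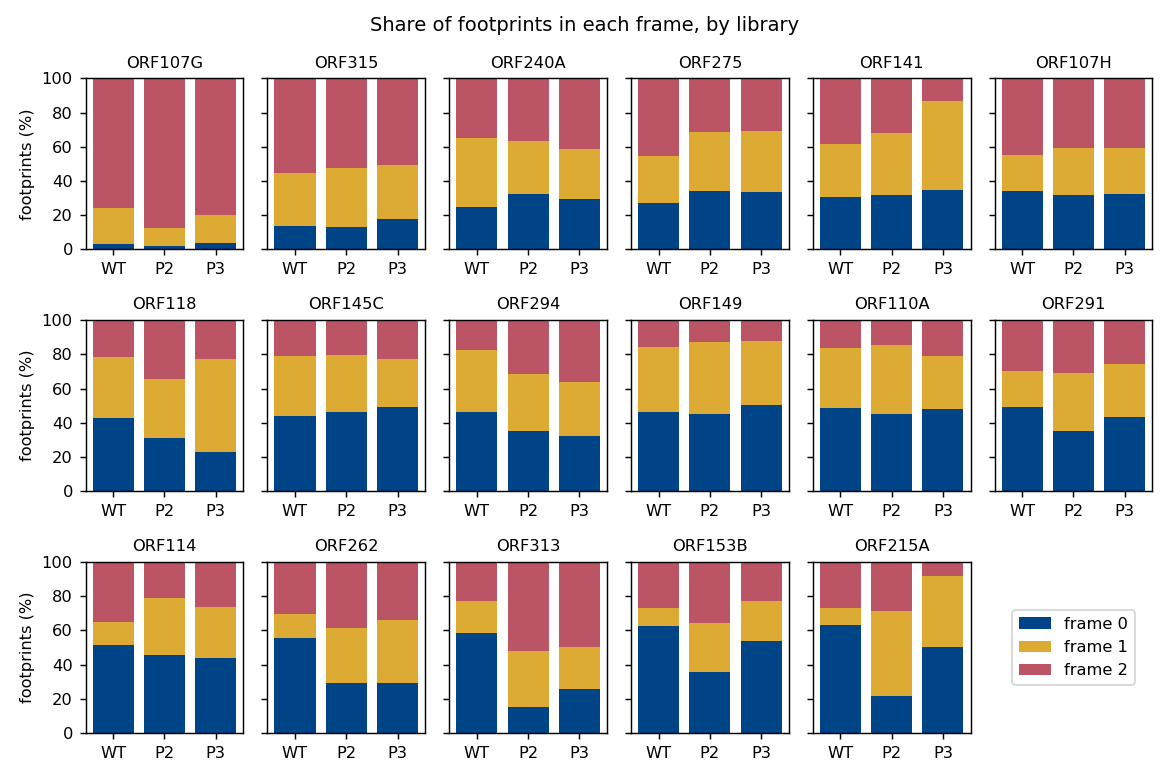
Share of footprints in frame 0 (blue, bottom), frame 1 (yellow) and frame 2 (red, top) in percent (vertical axis) in the WT, P2 and P3 libraries (horizontal axis) for each of the 17 open reading frames without a frame at 0% or 100%. ORF107G holds 76.0% or more in frame 2 in every library, ORF149 keeps the order frame 0, frame 1, frame 2, and ORF313 passes from 58.6% in frame 0 in WT to 51.8% in frame 2 in P2.

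Over the 17, the frame 0 share was at least 10 points lower than in WT in 7 open reading frames in P2 and 5 in P3, and at least 10 points higher in none. The median difference was -3.73 points in P2 and -1.69 in P3, against -14.6 and -15.3 over the 55 known rows without end values. Of those known rows 42 in P2 and 43 in P3 were at least 10 points lower. The open reading frames without end values were thus lower in a smaller share (41.2% in P2 and 29.4% in P3) than the known rows (76.4% and 78.2%). This gap has no test, and the lists started at different levels. In WT the median frame 0 share was 46.1% over the 17 and 57.1% over the 55 known rows. Frame 0 led in WT in 11 of the 17 and in 49 of the 55. The part of the starting level in the gap was not tested.

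Over all open reading frames the frame 0 share was at least 10 points lower in P2 than in WT in 19 of the 44 with a value in both (43.2%) and at least 10 points higher in 9 (20.5%). Over all rows 62.0% were lower and 10.0% higher. In P3 it was lower in 18 of 43 (41.9%) and higher in 7 (16.3%), against 61.6% and 8.08% over all rows. The known rows gave 43 of 56 lower and 1 higher in each mutant, and the higher row was an exon of rpl2 (rpl2_2) in P2 and an exon of nad2 (nad2_5) in P3. P2 and P3 are both set against the same WT library, so these counts share its deviations. The median difference was -4.69 points in P2 and -4.17 in P3, against -14.8 and -15.3 in the known rows. Just inside the 10 points lay a difference of -10.8 points in P2 and -12.5 in P3, and just outside it ORF251 in P2 (-8.33) and ORF153B in P3 (-8.87).

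**Figure D5:**
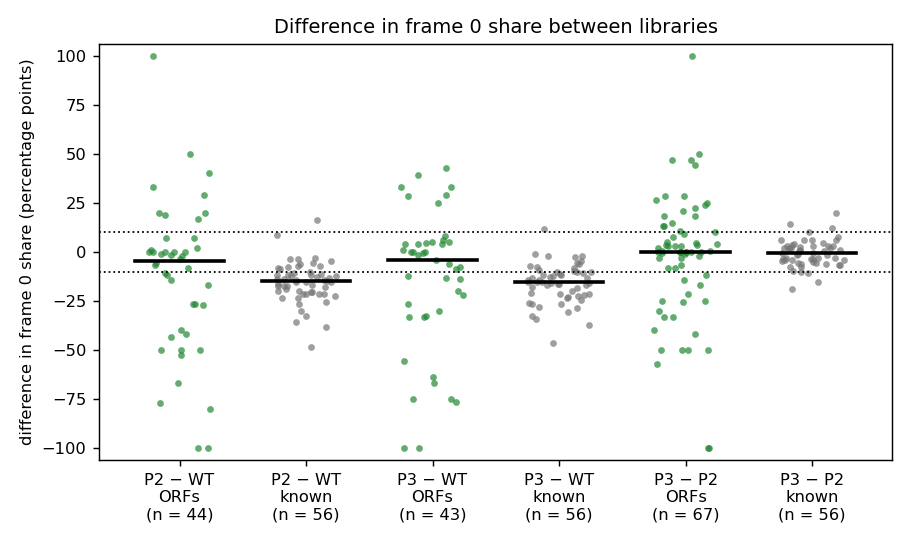
Difference in frame 0 share in percentage points (vertical axis) for P2 minus WT, P3 minus WT and P3 minus P2 (horizontal axis), for open reading frames (green) and for known genes and exons (grey), with 1 point per row with a value in both libraries, bars at the medians and dotted lines at 10 points. The open reading frames spread from -100 to 100 points in P2 minus WT around a median of -4.69, and the known rows lie around -14.8.

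Over all open reading frames with a value in both, P2 and P3 differed from each other about as often in both directions. Of 67 open reading frames with a value in both, 19 were at least 10 points lower in P3 and 19 at least 10 points higher (28.4% each), with a median of 0 points. Among those with a value in all 3 libraries, 9 were lower and 13 higher. Without rows at 0% or 100%, 3 were lower and 6 higher. Over all rows 18.7% were lower and 18.7% higher, and of the known rows 4 were lower and 4 higher. Among the 17 without end values 0 were lower and 3 higher in P3, which were ORF215A, ORF153B and ORF313 (10.7 points). Differences of 10 points between these libraries of the same mutant were thus common among the open reading frames.

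Values in all 3 libraries were listed for 42 open reading frames. In 16 of them the frame 0 share was at least 10 points lower in both mutants. This held for 56.1% of all such rows and for 39 of the 56 known rows. Of these 16, 10 stood at 100% in WT, where the share can be equal or lower but not higher. They included ORF131, with 100% in WT and 0% in both mutants, and ORF152A, with 100%, 23.1% and 23.5%. ORF106A had 100%, 33.3% and 36.4%, and ORF159 had 100%, 50% and 25%. ORF116 had 100%, 50% and 0%, ORF110B had 100%, 50% and 25%, ORF105A had 100%, 0% and 44.4%, and ORF184 had 100%, 20% and 66.7%. In 5 of these 8 open reading frames the mutant libraries also lay 25 points or more apart from each other. ORF199 was the only member of the 16 that was below 100% in WT and had an end value, with 66.7%, 14.3% and 0%. The other members of the 16 were ORF145A, ORF167 and, without end values, ORF118, ORF215A, ORF262, ORF294 and ORF313.

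A frame 0 share at least 10 points higher in both mutants was found in 5 of the 42 and in 0 of the 56 known rows. Of the 5, 4 stood at 0% in WT, where the share can only be equal or higher. ORF101A had 0% in WT, 40% in P2 and 33.3% in P3, ORF109 had 0%, 20% and 29.2%, ORF106F had 0%, 19.0% and 42.9%, and ORF111D had 0%, 20% and 33.3%. ORF113 was the 1 that started between the ends, with 33.3% in WT, 62.5% in P2 and 72.7% in P3. ORF101A and ORF109 had frame 1 in the lead in all 3 libraries, at 100%, 60% and 66.7% for ORF101A and at 100%, 46.7% and 50% for ORF109. No open reading frame was 10 points higher in one mutant and 10 points lower in the other.

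Frame 0 held at least 50% in all 3 libraries in 5 open reading frames (11.9% of 42), against 11.2% of all rows with 3 values and 6 of 56 known rows. ORF145A had 100% in WT, 83.3% in P2 and 87.5% in P3, and ORF167 had 100%, 60% and 78.3%. These were the highest frame 0 shares in P3 among open reading frames with a value in all 3 libraries. ORF105B had 100%, 100% and 66.7%, ORF121B had 66.7%, 60% and 75%, and ORF154 had 50%, 66.7% and 55%. All 5 had at least 1 frame at 0% in at least 1 library, so their shares may rest on few footprints. At 11.9% against 11.2% of all rows, such members were no more frequent among the open reading frames than in the tables as a whole. The same frame led in all 3 libraries in 14 of the 42 open reading frames, or 33.3%, against 49.0% of all rows and 34 of 56 known rows. That frame was frame 0 in 9, frame 1 in 2 and frame 2 in 3.

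The remaining members with a value in all 3 libraries had end values in at least 1 of them and no common course. ORF117 had 66.7% in frame 0 in WT, 40% in P2 and 62.5% in P3, and ORF251 had 50%, 41.7% and 20%. ORF107C had 0%, 0% and 25%, and ORF205 had 0%, 0% and 28.6%. ORF158 had 0%, 50% and 0%, and ORF204 had 0%, 33.3% and 0%. In ORF158 and ORF204 the frame 0 share was the same in P3 as in WT, but the other frames were not. Frame 2 held 100% of ORF158 in WT and 50% in P3, and 100% of ORF204 in WT and 25% in P3.

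The 25 open reading frames with a value in both mutants and none in WT had a median frame 0 share of 33.3% in P2 and 16.7% in P3, and frame 0 reached 50% in 10 of them in P2 and 5 in P3. A frame at 0% or 100% occurred in 15 of the 25 in P2 and in 17 in P3. In 9 of them a single frame held 100% in both libraries. That frame was the same in 6, namely frame 0 in ORF119 and ORF136B, frame 1 in ORF100B and ORF111B, and frame 2 in ORF153A and ORF240B. It differed in ORF107B, ORF107F and ORF160. Over all 25, the same frame led in both mutants in 7, different frames led in 11, and 7 had a tie in at least 1 library. Another 11 had an end value in at least 1 library without a single frame at 100% in both. They ran from ORF100C, with 0% in frame 0 in both libraries and 80% and 66.7% in frame 1, to ORF187, with 57.1% in frame 0 in P2 and 0% in P3. The last 5 of the 25 had no end value in either library. Of these, ORF101B had 57.1% in frame 0 in P2 and 15.4% in P3, and ORF157 had 52.4% and 26.7%. ORF102 had 25% and 28.6%, ORF161 had 33.3% and 25%, and ORF164 had 12.5% and 33.3%. None of these 5 thus had most of its footprints in frame 0 in both mutants.

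The 13 other open reading frames with a value had one in 1 library, or in WT and 1 mutant, and 12 of the 13 had an end value wherever they were listed. In WT alone, frame 0 stood at 0% in ORF106D, ORF109B and ORF120. In P2 alone it stood at 0% in ORF106B, ORF106E and ORF152B and at 50% in ORF111A and ORF170. In P3 alone it stood at 100% in ORF139A and at 0% in ORF143. All footprints of ORF122A were in frame 1 in WT and in frame 0 in P2, and all those of ORF136A were in frame 2 in WT and in frame 1 in P2. ORF100A had 50% each in frames 1 and 2 in both WT and P3. ORF111A was the exception, with 16.7% and 33.3% in frames 1 and 2. No open reading frame seen in WT without both mutants had a footprint in frame 0 in WT.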

How the data were processed

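Mitochondrial ribosome footprints were sequenced from 3 libraries, each the 1 library of its group, grouped by the library titles. STAR and featureCounts were used, per the submitters' processing notes. Not given in the sources used here are versions, settings, genome build, annotation, footprint lengths kept and the way frames were assigned. Codon periodicity was deposited by the authors as a fraction of a row's footprints per frame, per the file headers, and was multiplied to percent here. Gene levels were deposited as TPM, per the file headers, for 24 genes, none of them a member. Read numbers per class came from the deposited summary sheets, read as other values because text stands among them.

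A row had a value where its 3 shares were numbers that summed to 100% within 0.001. A frame 0 share of 50% and a difference of 10 percentage points were counted. Members and lists were chosen with earlier results of these data known. The rule for named members took 32 of those with 3 values: any with a frame 0 share of 50% or more, the 5 highest and lowest shares and the 5 largest differences, ties included. It also took members with a value in 1 library, and members related to or overlapping known genes, which were not looked for because none matched the gene table. The 17 members without end values are all named, 10 of them outside the rule and after their values were seen, as were the others named for a small count. Alternatives were other thresholds, means, rows with 3 values and rows without end values. Counting was tested on simulated data, with Python 3.11.15, pandas 2.3.3, numpy 2.4.6 and matplotlib 3.10.9.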

Additional observations from a re-analysis of the deposited data

Results flagged for a closer look

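In 4 open reading frames the frame 0 share was on opposite sides of the WT value in P2 and P3, which is what marked them. The difference between the mutants was not tested, and each value rests on 1 library. ORF121B was 6.67 points below WT in P2 (-6.67) and 8.33 points above it in P3, so P2 minus P3 was -15.0 points. ORF149 was at -1.31 and 3.85 points (-5.16), ORF315 at -0.247 and 4.50 (-4.75), and ORF107G at -1.09 and 0.874 (-1.97). The last 3 differences were smaller than the 10 points counted in the comparisons.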

How the results depend on the processing

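No paired analysis was possible because each group had 1 library and the labels give no replicate numbers. For the same reason no library was left out. Of 81 alternative values for 30 counts and medians, 44 stayed within 1.5 times the count or 5 percentage points, which were set because no replicate spread exists. The other 37 moved. Orders between counts were less stable than the values: in P3, frame 1 led in more members than frame 0 (25 and 21), but in fewer among members with 3 values (14 and 16) and without end values (10 and 11). Frame 0 at 50% or more was counted in more members in P2 than in WT (23 and 21), but in fewer with 3 values (10 and 21). The median of P3 minus P2, 0 points, was 2.89 with 3 values and without end values, and the mean was -2.93.

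Leaving out end values moved the most. Members with a value numbered 17 in WT, 40 in P2 and 36 in P3 (48, 74 and 70 with them). Frame 0 at 50% or more was left in 5, 8 and 6 members (21, 23 and 17), and frame 0 led in 11, 14 and 11 (25, 22 and 21). Frame 1 led in 1, 7 and 10 (7, 17 and 25), and frame 2 led in 5, 11 and 13 (9, 17 and 19). A frame 0 share 10 points lower was left in 7 members for P2 minus WT, 5 for P3 minus WT and 3 for P3 minus P2 (19, 18 and 19). A share 10 points higher was left in 0, 0 and 6 (9, 7 and 19). Fewer rows enter these counts by construction.

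Among members with 3 values, frame 0 reached 50% in 10 in P2 and 11 in P3, and it led in 12 in P2. Frame 1 led in 4, 10 and 14, and frame 2 led in 10 in P2 and 9 in P3. The largest share stood 18.1 points above even in P3, while 9 members were 10 points lower in P3 than in P2 and 13 were 10 points higher. With a threshold of 60%, 11 members passed in P2. With 5 points, 11 were higher in P3 than in WT, and with 20 points 12 were higher in P3 than in P2. Summing over all frames put the distance from even at 30.0 points in P2 and 33.3 points in P3 (17.6 and 27.9). The mean difference was -12.9 points for P2 minus WT and -14.1 for P3 minus WT, against medians of -4.69 and -4.17, and the cause was not tested. The exact number of footprints behind each share is unknown and limits every value.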

Other observations

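The 17 open reading frames without end values were also compared by all their frame shares. The measure was the percentage of footprints that would have to change frame for one member to equal another, averaged over the 3 libraries. ORF110A and ORF149 were the closest pair, at 4.38 points, and ORF145C lay 4.95 points from ORF110A. ORF145C was closer still to a known gene, atp6.2, a copy of the gene for a subunit of ATP synthase, at 4.16 points. Known rows without end values numbered 55, so a near one was easier to find than among the 17. ORF291 lay 5.18 points from atp1, the gene for another subunit of that enzyme, and ORF114 lay 5.42 points from ccmC, a cytochrome c maturation gene. ORF107G was the farthest from the rest, 28.1 points from the nearest open reading frame (ORF315) and 22.8 points from the nearest known row, an exon of nad4 (nad4_4). ORF275 was the closest to an even spread, at 5.55 points. These are descriptions of 3 libraries and say nothing of shared function.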
